A study of Mus musculus with 23 samples.

Results

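Acute phase protein genes were followed in the livers of 23 male mice. The set comprised 10 genes, Saa1, Saa2, Saa3, Orm2, Lcn2, Serpina3n, Hp, Fgb, Il1rn and Socs3, chosen by name as a panel of the hepatic acute phase response. Earlier results of these data were known when they were chosen. The array annotation gave 15 probe sets to 1 of these genes alone, out of 45037 probe sets tested and 18193 genes represented. Each gene was represented by its probe set with the highest mean over the 23 arrays, and the remaining 5 probe sets (1 of Saa1, 2 of Il1rn and 2 of Socs3) are given beside it. All mice were hemizygous FVB/N-SULT1A1/2 males, which carry human sulfotransferase genes, and every sample was labelled with an age of 5 weeks. Treated mice received 1-MIM-OH (1-methoxy-3-indolylmethyl alcohol, a compound derived from cruciferous vegetables) by mouth at 26 mg/kg, 3 times a week. Vehicle mice received glyceryl trioctanoate alone. The mice were killed 24 h after their final dose, which was dose 10 on the 21 d schedule (5 treated and 6 vehicle mice) and dose 40 on the 90 d schedule (6 treated and 6 vehicle mice). The submitters left out 1 further treated 21 d array because of hybridisation artefacts, per the labels.

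The acute phase response is a change in the proteins that the liver secretes into blood after infection, injury or other inflammation. Interleukin-6, acting through STAT3, and interleukin-1, acting through NF-kappaB, are its main signals to hepatocytes, and the C/EBP factors bind many of the genes concerned. In mice, serum amyloid A and orosomucoid are strongly inducible, whereas haptoglobin and fibrinogen are abundant at rest and increase less.

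The medians of the arrays were within 5.53 to 5.61 (log2 signal), and arrays of the same group correlated with r between 0.984 and 0.997. The difference between the 3' and 5' control probe sets for Gapdh, a measure of transcript or product shortening, was 1.02 to 1.45 on 4 of the 5 treated 21 d arrays. It was 0.14 on the array of treated 21 d replicate 2 and 0.09 to 0.49 on the vehicle 21 d arrays. At 90 d it was 0.14 to 1.24 in treated and 0.36 to 0.74 in vehicle mice. Treated 21 d replicate 2, which earlier results of these data had singled out, stood apart for the acute phase genes. The main values that rest on it are therefore also given without it. Hepatocyte markers (10 of 12 listed genes measured) had a mean signal of 13.3 to 13.6 in the animals of all 4 groups.

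For 9 of the 10 acute phase genes, more of the variation lay between animals of the same group than between groups. Among 18193 genes, Lcn2 had the largest within-group SD (2.3 on the log2 scale), Saa2 ranked 2 (2.05) and Orm2 ranked 3 (1.98). Saa1 ranked 8 (1.63), Saa3 46 (1.01) and Socs3 81 (0.882), against a median SD of 0.152 over all genes. Hp (0.277) and Serpina3n (0.223) were above that median, and Fgb (0.132) and Il1rn (0.12) were below it. Differences between the 4 groups accounted for 53.5% of the variance of Serpina3n, 18.2% of that of Fgb, and 5.12% (Orm2) to 16.8% (Hp and Socs3) of that of the other 8 genes. The median over all genes was 17.2%.

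Saa1 encodes a serum amyloid A protein that is carried on high-density lipoprotein during inflammation. In the 5 treated mice at 21 d (replicates 1 to 5), its log2 signals were 10.75, 14.83, 11.18, 11.16 and 11.87. Replicate 2 was well above the next animal, and the group spanned 16.9-fold; at 14.83 this animal was near the highest signal on the arrays (15.41), where a rise in transcript can be compressed. In vehicle mice at 21 d, Saa1 ran from 11.17 to 14.12 with a median of 12.43, and replicates 1, 5 and 4 were the high animals (14.12, 13.67 and 13.36). At 90 d the treated mice ran from 10.32 to 14.56 with a median of 11.56, and replicates 3 (14.56), 6 (14.10) and 5 (12.64) were high. Vehicle mice at 90 d ran from 10.05 to 14.06 with a median of 10.54, and replicate 2 (14.06) was followed by replicate 4 (11.86). High and low animals thus occurred in vehicle and treated groups at both times, and the groups overlapped. The second Saa1 probe set followed the representative with r = 0.999 over the 23 animals.

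Saa2, its near-identical neighbour, had a wider range of signals. Treated 21 d signals were 8.31, 14.49, 8.68, 8.71 and 9.88, a 72.5-fold span with replicate 2 at the top. Vehicle 21 d signals ran from 8.87 to 12.23 (median 9.74), treated 90 d signals from 8.31 to 13.79 (median 9.49) and vehicle 90 d signals from 7.90 to 12.38 (median 8.31). The animals deviated from their group means much as for Saa1, with Pearson's r = 0.98 and a Spearman correlation of 0.92 after group means were removed. In the annotation, 1 Saa1 probe set and the Saa2 probe set cite the same accession, so the signals of these genes can share transcripts and their separate values are uncertain.

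Saa3, which is also made outside hepatocytes, had signals of 8.74, 11.89, 8.84, 8.64 and 8.46 in treated 21 d mice. Vehicle 21 d signals ran from 8.17 to 11.12 (median 8.53), treated 90 d signals from 8.05 to 9.74 (median 8.91) and vehicle 90 d signals from 7.99 to 9.49 (median 8.38). In treated 90 d mice, replicates 5, 3 and 6 (9.74, 9.69 and 9.32) were close together for Saa3, although replicate 5 was the lowest of these 3 for Saa1.

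Because these genes moved together between animals, the sequences before their start sites were read from a RefSeq table (GRCm38.p6), which held 9 of the 10 genes. The 250 bases before each start were searched on both strands for TTGCNNAA (C/EBP), TTCNNNGAA (STAT) and GGG, NN and TTTCC in a row (NF-kappaB). The C/EBP letters were found for 6 of 9 genes and in 9.56% of all 32851 promoter windows of that length. The 5 genes with the largest spread among these 6 are shown first, with the match and the 25 bases on either side, 5′ to 3′ on the gene's strand and with the match in capitals.
Saa1: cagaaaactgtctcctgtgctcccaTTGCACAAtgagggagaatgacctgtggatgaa
Saa2: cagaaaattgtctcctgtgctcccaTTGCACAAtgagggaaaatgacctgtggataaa
Saa3: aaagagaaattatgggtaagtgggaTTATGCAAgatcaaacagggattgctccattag
Orm2: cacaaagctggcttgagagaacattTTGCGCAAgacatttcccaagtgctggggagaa
Lcn2: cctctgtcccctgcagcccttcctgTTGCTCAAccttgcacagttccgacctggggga
The Saa3 match is on the opposite strand, so the letters printed are its reverse complement. The stretches lie at chr7:46743130-46743187 (minus strand, Saa1), chr7:46751625-46751682 (plus, Saa2), chr7:46715743-46715800 (minus, Saa3), chr4:63362304-63362361 (plus, Orm2) and chr2:32387923-32387980 (minus, Lcn2). The capitals begin 182, 183, 99, 120 and 216 bases before the start, in that order. Saa1 and Saa2 were 94.8% identical over 251 aligned columns of the upstream windows, so their matches are not independent, whereas Saa1 and Saa3 were 52.2% identical. The patterns were chosen after the promoters were at hand, and a match of letters is a description of the sequence only.

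Orm2 encodes an orosomucoid, a plasma glycoprotein that binds drugs and lipids. Its signals in treated 21 d mice were 7.82, 14.10, 7.66, 8.13 and 9.06, so that replicate 2 stood 86.8-fold above the lowest animal. Vehicle 21 d signals ran from 8.42 to 12.07 (median 9.48), treated 90 d signals from 7.99 to 12.86 (median 9.6) and vehicle 90 d signals from 8.16 to 11.91 (median 8.38). In vehicle 90 d mice, replicate 2 (11.91) and replicate 4 (9.34) were high, while the other 4 animals lay between 8.16 and 8.40.

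Lcn2 encodes lipocalin-2, which binds bacterial siderophores and is made by hepatocytes and by neutrophils. Treated 21 d signals were 7.35, 13.83, 7.19, 7.35 and 8.37, the widest span of any of these genes in any group (99.7-fold). Vehicle 21 d signals ran from 6.97 to 12.08 (median 8.50), treated 90 d signals from 7.0 to 12.25 (median 8.78) and vehicle 90 d signals from 5.82 to 11.09 (median 6.6). The lowest treated 90 d value, 7.0, was above 4 of the 6 vehicle values (5.82, 6.04, 6.55 and 6.65), and the groups overlapped, with vehicle replicates 2 and 4 at 11.09 and 7.48.

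Hp encodes haptoglobin, which binds free haemoglobin. Treated 21 d signals were 14.26, 14.90, 14.33, 14.40 and 14.34. Vehicle 21 d signals ran from 14.13 to 14.83 (median 14.36), treated 90 d signals from 13.92 to 14.79 (median 14.27) and vehicle 90 d signals from 13.99 to 14.60 (median 14.08). No group spanned more than 1.83-fold, yet the animals deviated from their group means much as for Saa1 (Pearson's r = 0.95, Spearman 0.89). Within groups the Spearman correlation was 0.943 in vehicle 21 d, 0.714 in vehicle 90 d and 0.771 in treated 90 d mice. Fgb encodes the beta chain of fibrinogen. Its treated 21 d signals were 14.42, 14.86, 14.49, 14.45 and 14.49, and the other groups lay between 14.52 and 14.94. Hp and Fgb were close to the highest signal on these arrays in all animals.

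**Figure D1:**
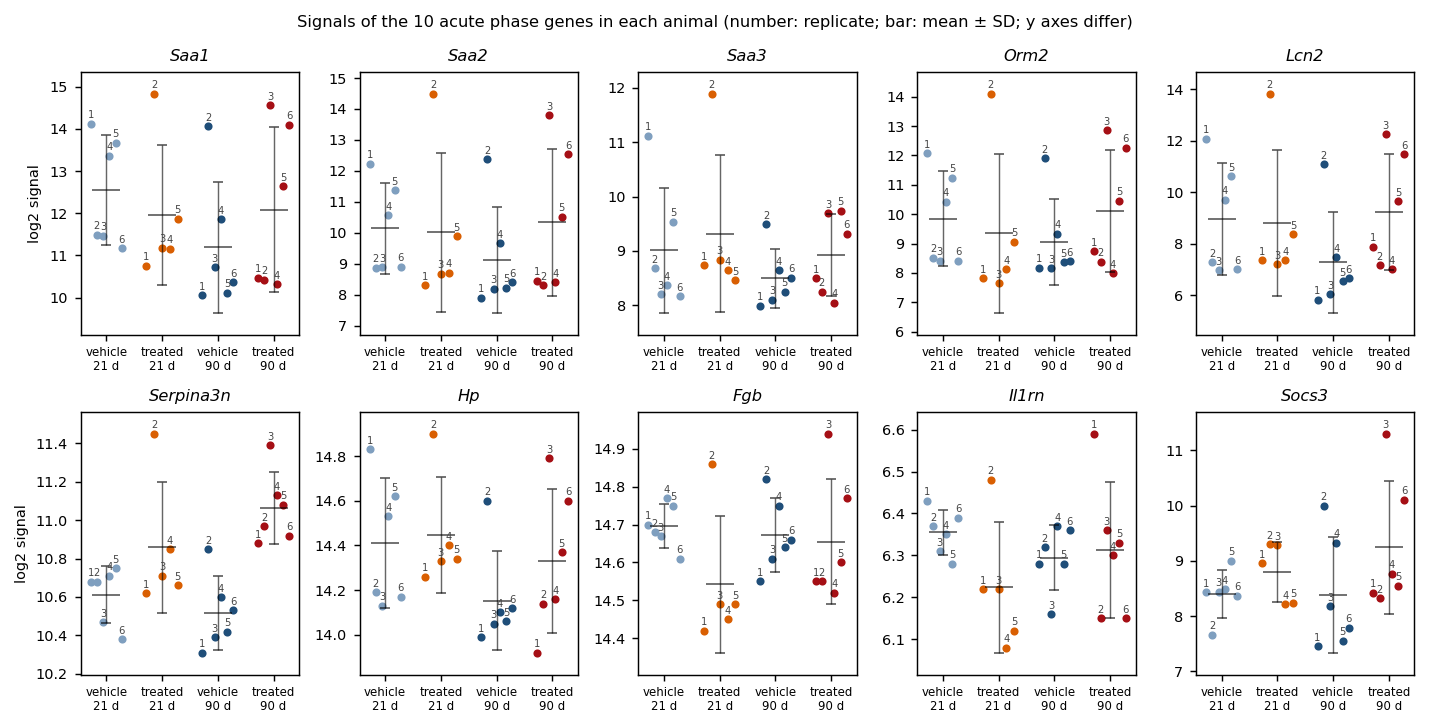
Log2 signal (y axis, scale differs by panel) of the representative probe set of each of the 10 genes in every animal of the 4 groups; numbers are replicates, and the bar gives the mean ± SD. Treated 21 d replicate 2 is the highest treated 21 d animal in all 10 panels, and Serpina3n is the panel in which the treated 90 d animals all lie above the vehicle 90 d animals.

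Serpina3n, a secreted inhibitor of serine proteases, was the gene of the 10 whose 90 d groups did not overlap. Its signals in treated 90 d mice ran from 10.88 to 11.39 (median 11.03), and those in vehicle 90 d mice from 10.31 to 10.85 (median 10.48). All 6 treated animals lay above all 6 vehicle animals, although the nearest values, 10.88 and 10.85, almost met. Treated 21 d signals were 10.62, 11.45, 10.71, 10.85 and 10.66, and vehicle 21 d signals ran from 10.38 to 10.75 (median 10.68), so these groups overlapped. Serpina3n belongs to a cluster of similar serpin genes, and whether their transcripts add to its signal was not tested.

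The last pair act on signalling. Il1rn encodes the interleukin-1 receptor antagonist, a secreted inhibitor of interleukin-1. Its representative probe set was nearly flat, at 6.22, 6.48, 6.22, 6.08 and 6.12 in treated 21 d mice and between 6.15 and 6.59 in the other groups. The dimmest of the 3 Il1rn probe sets gave 4.79, 6.68, 4.70, 4.87 and 4.41 in treated 21 d mice. Its Pearson's r with Saa1 was 0.61, against 0.19 for the representative and 0.49 for the middle one. Without treated 21 d replicate 2 these values were 0.47, -0.08 and 0.40. By Spearman correlation over all animals the dimmest (0.40) was below the middle one (0.48), and the representative was at 0.19. The Il1rn probe sets therefore disagree on how far the gene followed the others. Socs3 encodes an intracellular inhibitor of the JAK and STAT pathway that STAT3 itself induces. Treated 21 d signals were 8.96, 9.30, 9.28, 8.21 and 8.24, so replicates 2 and 3 were nearly level. Vehicle 21 d signals ran from 7.66 to 9.0 (median 8.44), treated 90 d signals from 8.32 to 11.30 (median 8.66) and vehicle 90 d signals from 7.45 to 10.00 (median 7.99). In treated 90 d mice, replicates 3 (11.30) and 6 (10.11) were high, as they were for Saa1. The 3 Socs3 probe sets followed Saa1 alike, with r between 0.75 and 0.77.

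For the remaining genes of the table, the STAT and NF-kappaB letters are shown. The STAT letters were found for 2 of 9 genes, Fgb and Socs3, and in 7.02% of all windows, and the NF-kappaB letters for 2 of 9 genes, Serpina3n and Il1rn (in 1 of its 3 windows), and in 1.41% of all windows.
Fgb: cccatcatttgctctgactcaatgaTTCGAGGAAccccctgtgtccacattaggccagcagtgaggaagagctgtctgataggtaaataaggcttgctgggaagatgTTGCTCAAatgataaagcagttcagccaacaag
Socs3: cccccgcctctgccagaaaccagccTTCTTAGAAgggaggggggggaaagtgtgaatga
Serpina3n: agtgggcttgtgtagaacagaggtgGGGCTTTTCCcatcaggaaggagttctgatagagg
Il1rn: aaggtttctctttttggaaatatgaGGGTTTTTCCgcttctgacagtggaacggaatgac
Fgb holds the STAT and the C/EBP letters in 1 stretch, at chr3:83049911-83050050 (minus strand). The others lie at chr11:117969487-117969545 (minus, Socs3), chr12:104406512-104406571 (plus, Serpina3n) and chr2:24345295-24345354 (plus, Il1rn). No promoter of Hp was in the table.

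Co-variation between animals was described with the group means removed. Over 23 animals, Pearson's r between pairs of the 10 genes ran from 0.105 to 0.991 with a median of 0.779, and 21 of 45 pairs reached 0.8. Both values of a pair come from the same RNA and array, so RNA quality, tissue sampling and scaling are shared by the genes compared. Saa1 correlated with Orm2 and Lcn2 at r = 0.97 each, with Fgb at 0.89, with Saa3 at 0.81, with Socs3 at 0.77 and with Serpina3n at 0.74. Without treated 21 d replicate 2 the median r was 0.764 and 19 pairs reached 0.8. The correlation of Serpina3n with Saa1 was then 0.67, and that of Il1rn was -0.08. Without this animal and vehicle 90 d replicate 2, the 2 animals farthest from the median in Saa1, the median r was 0.732, with 15 pairs at 0.8 or above. Regressing out the Gapdh difference left the median at 0.782. The Gapdh difference itself correlated with Il1rn at r = -0.80 (-0.69 without treated 21 d replicate 2), with Serpina3n at -0.65 (-0.34) and with Saa1 at -0.27 (0.05), over 23 (22) arrays.

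**Figure D2:**
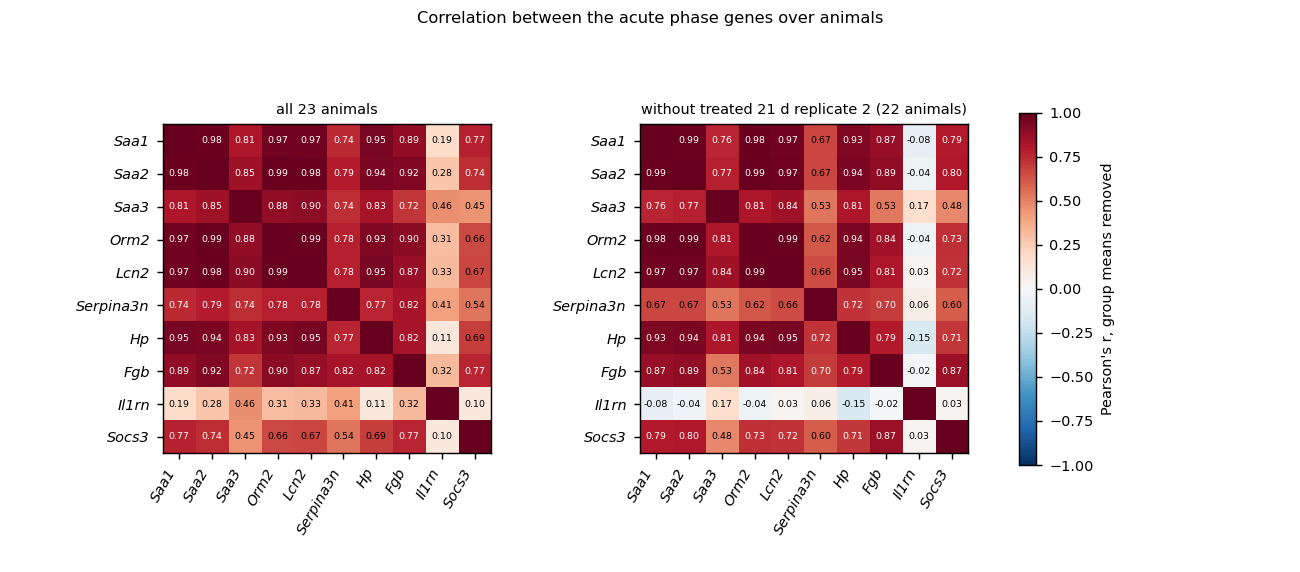
Pearson's r (colour and printed value) between the 10 genes over animals with group means removed, for all 23 animals (left) and without treated 21 d replicate 2 (right). Saa1, Saa2, Orm2, Lcn2 and Hp form the dark block in both panels, and the Il1rn row is pale in both.

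Within each group the same animals led for most of the genes. In treated 21 d mice, replicate 2 was the highest animal for 10 of 10 genes; with 5 animals, no r is given for this group. In vehicle 21 d mice, replicate 1 was highest for 7 of 10 genes (Saa1, Saa2, Saa3, Orm2, Lcn2, Hp and Il1rn), replicate 5 was in the top 2 for 9 and replicate 4 in the top 3 for 8. The median r of the 45 pairs over these 6 vehicle animals was 0.66. In vehicle 90 d mice, replicate 2 was highest for 9 of 10 genes, replicate 4 was highest for the other, Il1rn, and replicate 1 was lowest for 8. The median r was 0.928, and 0.74 over the 4 animals left without those farthest from the median in Saa1. In treated 90 d mice, replicate 3 was highest for 8 of 10 genes and replicate 6 in the top 2 for 7, with a median r of 0.877, and 0.578 over the 4 animals left. Serpina3n followed Saa1 with r = 0.935 in vehicle 90 d mice and with r = 0.474 in treated 90 d mice, each over 6 animals. Over the 4 animals left in each group, r was 0.262 and 0.335. The difference between the groups was not tested.

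**Figure D3:**
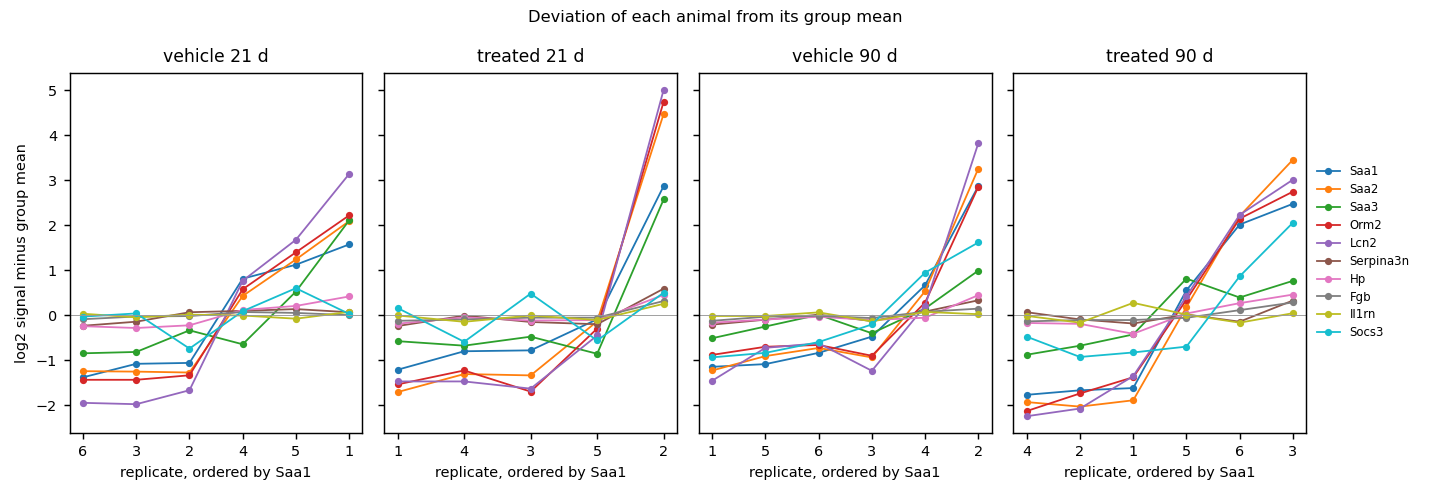
Deviation of each animal from its group mean in log2 units (y axis) for the 10 genes (lines), with the replicates of each group ordered by Saa1 (x axis). Lcn2, Saa2, Orm2 and Saa1 have their highest points at the right of every panel (Lcn2 at 13.83 in treated 21 d replicate 2, against a group mean of 8.82), while Hp, Fgb, Serpina3n and Il1rn stay near 0.

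At 21 d, none of the 10 genes passed the test for a difference between treated and vehicle mice (limma, adjusted p under 0.05), and none had an unadjusted p under 0.05. Over all probe sets 0.957% passed at this time and 15.8% had an unadjusted p under 0.05. Treated means were higher for 4 genes and lower for 6, and the median log2 difference of the 10 genes was -0.13, against -0.02 over all genes. Lcn2 differed by -0.13 ± 1.25 (SE; 95% interval -2.72 to 2.47, adjusted p 0.979) and Saa1 by -0.59 ± 0.89 (95% interval -2.43 to 1.25, adjusted p 0.818). For Serpina3n the difference was 0.25 ± 0.13 (adjusted p 0.357), and for Fgb -0.15 ± 0.08 (adjusted p 0.372). The other fibrinogen chains were near Fgb (-0.17 ± 0.07 for Fga and -0.15 ± 0.06 for Fgg, adjusted p 0.264 and 0.230). The Il1rn difference was -0.13 ± 0.08 (adjusted p 0.428). Its other probe sets differed by 0.10 ± 0.09 and 0.09 ± 0.28 (adjusted p 0.655 and 0.923), so the sign for Il1rn depended on the probe set. Treated 21 d replicate 2 decided the values of the widely varying genes: without it the difference was -1.31 for Saa1, -1.25 for Saa2, -0.34 for Saa3, -1.68 for Orm2 and -1.38 for Lcn2, and still none passed. When the Gapdh difference entered the fit, the values were 0.33 for Saa1, 1.36 for Saa2, 1.32 for Saa3, 1.07 for Orm2 and 1.70 for Lcn2, again with none passing. With group means removed, the Gapdh difference correlated with these genes at r from -0.495 (Saa3) to -0.273 (Saa1). Without treated 21 d replicate 2, r was from -0.093 (Saa3) to 0.051 (Orm2). The Gapdh fit thus depended on that animal as well, and it was not run without it.

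At 90 d, 1 of the 10 genes passed, Serpina3n, which rose 1.46-fold in treated mice (log2 difference 0.55 ± 0.12 SE, 95% interval 0.29 to 0.80, adjusted p 0.0408). Over all probe sets 0.502% passed at 90 d, 0.331% with a rise and 0.171% with a fall. An unadjusted p under 0.05 was found for 10.2% of them and for 1 of the 10 genes, Serpina3n. Treated animals all lay above the vehicle animals for 0.648% of probe sets. The 2-sided exact permutation test over animals gave p = 0.00216 for Serpina3n among 924 splits, the smallest that 6 against 6 animals can give. The call was near the threshold. With each array centred on its median the adjusted p was 0.0504, and in 13 of 23 fits without 1 array Serpina3n no longer passed; over the 23 fits its difference was 0.48 to 0.61 and its adjusted p at most 0.111. The arrays concerned were treated 90 d replicates 2, 3, 4 and 5, vehicle 90 d replicates 1, 3, 4, 5 and 6, and vehicle 21 d replicates 1, 2, 3 and 5. Without treated 21 d replicate 2 the adjusted p was 0.00428. With the Saa1 signal of each animal as a covariate, an alternative added after the data were seen, the Serpina3n difference was 0.45 ± 0.09 (adjusted p 0.0142), and with the Gapdh difference as a covariate it was 0.56 ± 0.10 (adjusted p 0.00358).

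The other 9 genes did not pass at 90 d. Treated means were higher for 8 of them and lower for Fgb, and the median difference of all 10 genes was 0.70, against 0.02 over all genes. Lcn2 differed by 1.97 ± 1.20 (adjusted p 0.613), Saa2 by 1.21 ± 1.07 (0.755), Orm2 by 1.06 ± 1.03 (0.782) and Saa1 by 0.89 ± 0.85 (0.775). Saa3 differed by 0.43 ± 0.52 (adjusted p 0.836), Hp by 0.18 ± 0.15 (0.741), Il1rn by 0.02 ± 0.07 (0.959) and Fgb by -0.02 ± 0.08 (0.966). The other Il1rn probe sets differed by 0.015 ± 0.088 and, for the dimmest, by 0.375 ± 0.264 (adjusted p 0.974 and 0.674). Socs3 differed by 0.86 ± 0.46 (adjusted p 0.551), and its other probe sets by 0.54 ± 0.26 and 0.97 ± 0.44 (adjusted p 0.481 and 0.440). The unadjusted limma p was 0.0734 for the representative, and 0.0470 and 0.0359 for the others. Since the genes share their high animals, these higher means are not separate observations. Single arrays moved these values: over the fits without 1 array, the difference ran from 1.37 to 2.73 for Lcn2, 0.40 to 1.47 for Saa1, 0.52 to 1.86 for Saa2, 0.51 to 1.63 for Orm2, 0.26 to 0.63 for Saa3, 0.45 to 1.19 for Socs3 and 0.08 to 0.27 for Hp. Those of Fgb (-0.07 to 0.01) and Il1rn (-0.04 to 0.05) turned sign. The lowest values of Saa1, Saa2, Orm2, Socs3 and Hp were those without treated 90 d replicate 3. For the genes and times that did not pass, the 2-sided exact permutation test over animals gave p between 0.0779 (Fgb at 21 d) and 0.935 (Lcn2 at 21 d).

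**Figure D4:**
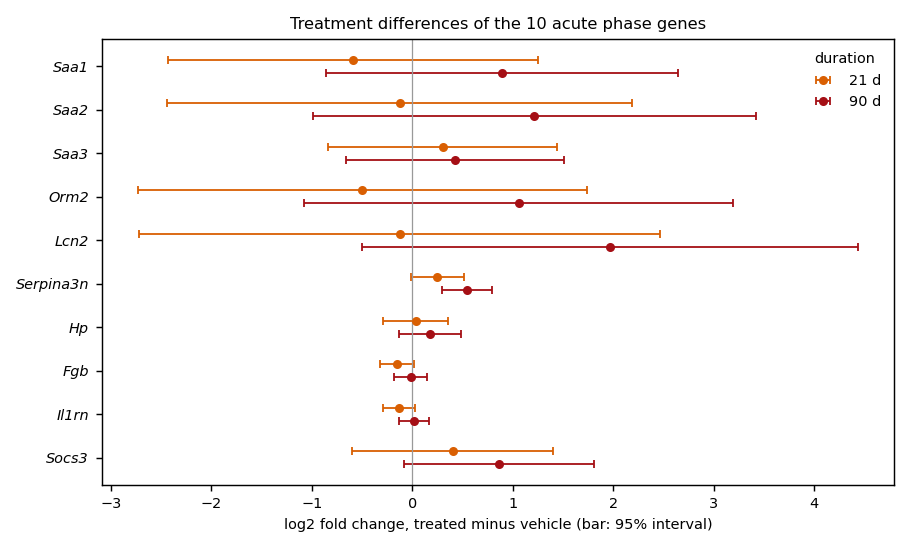
Treated minus vehicle difference in mean log2 signal (x axis) for each of the 10 genes at 21 d and 90 d, with 95% intervals of the limma fit. The intervals of Lcn2 span from -0.50 to 4.44 at 90 d, and among the 20 intervals only that of Serpina3n at 90 d (0.29 to 0.80) lies wholly above or below 0.

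The difference between the effects at the 2 times passed for 0 of the 10 genes, and 0% of all probe sets passed (9.59% at an unadjusted p under 0.05; 0 of the 10). The effect at 90 d was the higher for 10 of 10, with a median of 0.38, against 0.04 over all genes. For the middle Il1rn probe set, not the representative, it was lower (-0.09 ± 0.13). The effect was higher by 2.09 ± 1.73 for Lcn2 (adjusted p 0.701) and 0.30 ± 0.18 for Serpina3n (adjusted p 0.585). These values depended on treated 21 d replicate 2 and on the Gapdh difference, and no fit made both changes. Without that animal they were 3.35 ± 1.51 for Lcn2 and 0.45 ± 0.14 for Serpina3n (adjusted p 0.267 and 0.132). When the Gapdh difference entered the fit they were 0.35 ± 1.84 and 0.02 ± 0.16 (adjusted p 1.0 each), and the sign turned for Saa2 (-0.08), Saa3 (-0.85) and Il1rn (-0.04). Vehicle mice at 90 d had lower means than vehicle mice at 21 d for 10 of 10 genes. The median difference was -0.39, against -0.01 over all genes. Of the 10, 0 passed, against 0.00666% of all probe sets (0 of the 10 and 5.96% at an unadjusted p under 0.05). Some differences were near 0 (-0.015 ± 0.46 for Socs3 and -0.025 ± 0.08 for Fgb), and that of Socs3 reached 0.17 in fits without 1 array. Since the genes share their high animals, these counts are not separate observations. The vehicle difference was -1.67 ± 1.20 for Lcn2 (adjusted p 0.927) and -0.10 ± 0.12 for Serpina3n (adjusted p 0.961). The difference of the effects uses the same vehicle animals as this comparison.

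Other positive acute phase genes, which encode plasma and defence proteins that increase in inflammation, were read from a list of 32, of which 25 were measured. None passed in limma at either time (5 at 21 d and 2 at 90 d had an unadjusted p under 0.05), and the median difference was -0.14 at 21 d and 0.08 at 90 d. Over all probe sets, 0.957% passed at 21 d and 0.502% at 90 d, and 15.8% and 10.2% had an unadjusted p under 0.05. The counts of the lists that follow are to be read beside the same shares. The likeness of list genes to the 10 genes was measured as the correlation with the mean group-centred signal of the 10 over 23 animals. The signals were not scaled, so Lcn2 (within-group SD 2.3), Saa2 (2.05), Orm2 (1.98) and Saa1 (1.63) weigh far more in this mean than Fgb (0.132) or Il1rn (0.12). The correlation reached 0.8 for 16 of 25 (64%), with a median of 0.88, while 2.03% of all genes reached 0.8 and their median was -0.01. Without treated 21 d replicate 2 the median of the 25 was 0.83. Orm3 (r = 0.975), Orm1 (0.970), Apcs (serum amyloid P component, 0.953) and Lbp (lipopolysaccharide binding protein, 0.953) were closest, and Hamp, the iron hormone hepcidin, was lowest at -0.321. Whether Orm2 transcripts add to the Orm1 and Orm3 signals, here and in the ranking over the whole array, was not tested. The largest differences were -0.81 ± 0.76 for Mt1 and -0.75 ± 0.83 for Mt2, metallothioneins, at 21 d (adjusted p 0.673 and 0.732), and -1.51 ± 0.71 and -1.72 ± 0.69 without treated 21 d replicate 2 (adjusted p 0.231 and 0.154). The largest at 90 d were 0.61 ± 0.41 for Cd14 and 0.60 ± 0.67 for Cxcl1 (adjusted p 0.653 and 0.815). Negative acute phase genes, whose products decline in inflammation, passed for 0 of 16 at both times (2 at 21 d and 0 at 90 d at an unadjusted p under 0.05). At 21 d Apom differed by -0.41 ± 0.18 and Igf1, encoding a growth factor, by -0.24 ± 0.06 (adjusted p 0.273 and 0.0531), and at 90 d Cyp7a1, the rate-limiting enzyme of bile acid synthesis, by -0.68 ± 0.50 (adjusted p 0.695). Their median correlation was -0.35 (-0.26 without treated 21 d replicate 2), with Cyp2e1 at -0.70 and Rbp4, the retinol carrier, at -0.63.

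Among ligands of the pathway, 0 of 10 passed at either time (0 at 21 d and 1, Il6, at 90 d at an unadjusted p under 0.05). Il1b, encoding interleukin-1 beta, followed the 10 genes most closely (r = 0.92), then Il18 (0.80), Il1a (0.79) and Tnf (0.44). The median r of the 10 ligands was 0.23, and 0.10 without treated 21 d replicate 2. Il1b was 7.17 in treated 21 d replicate 2 and 5.74 to 6.06 in the other treated 21 d mice. Il6 had mean signals of 3.14 to 3.37 in the 4 groups, near the lowest on the array, and its 90 d difference of 0.23 ± 0.05 had an adjusted p of 0.0501. Il1b differed by -0.36 ± 0.25 at 21 d (adjusted p 0.531), by -0.61 ± 0.22 at 21 d without treated 21 d replicate 2 (adjusted p 0.107) and by 0.36 ± 0.24 at 90 d (adjusted p 0.639).

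Among 11 receptor genes, 1 rose and 1 fell at 90 d, and 0 passed at 21 d. Over all probe sets 0.502% passed at 90 d and 0.957% at 21 d. An unadjusted limma p under 0.05 was found for 6 of the 11 at 90 d and 1 at 21 d, against 10.2% and 15.8% of all probe sets. Il1r1, the signalling receptor for interleukin-1, had treated 90 d signals of 9.14 to 9.93 and vehicle 90 d signals of 8.40 to 9.27, which overlapped. It rose by 0.71 ± 0.16 (adjusted p 0.0408), whereas its other probe set differed by 0.09 ± 0.07 (adjusted p 0.674) and the mean of both by 0.40 ± 0.09 (adjusted p 0.0243). The Il1r1 call ended in 14 of 23 fits that left out 1 array, with adjusted p up to 0.117, and with arrays centred on their medians (adjusted p 0.0504). Il1rap, which encodes the accessory chain of the same receptor, fell by 0.38 ± 0.07 (adjusted p 0.0123), from 12.8 ± 0.09 to 12.42 ± 0.06 (SD, n = 6 each), and the treated animals all lay below the vehicle animals, as for 0.36% of all probe sets. Il1rap passed in all 23 fits that left out 1 array, but only its brightest of 5 probe sets passed, and the mean of them differed by -0.16 (adjusted p 0.265). Il6ra, the interleukin-6 binding chain, differed by 0.49 ± 0.16 at 90 d (adjusted p 0.221) and by 0.26 ± 0.17 at 21 d (adjusted p 0.481). Il10rb (r = 0.848) and Tnfrsf1a (r = 0.845) were the receptors nearest to the acute phase genes, and Il1rap was the farthest (r = -0.486). The median r of the 11 receptors was 0.49, and 0.20 without treated 21 d replicate 2.

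Of 18 transducers and transcription factors, 0 passed at either time (3 at 21 d and 1 at 90 d at an unadjusted p under 0.05). Stat3 (r = 0.906) and Myd88 (0.86), an adaptor of interleukin-1 and Toll-like receptors, were the 2 that reached 0.8. Over the 18 the median r was 0.37, and 0.26 without treated 21 d replicate 2. Cebpd and Cebpb, encoding C/EBP factors, differed by 0.43 ± 0.29 and 0.43 ± 0.15 at 90 d (adjusted p 0.658 and 0.258), and Fos by -0.47 ± 0.34 at 21 d (adjusted p 0.547), or -0.80 ± 0.31 without treated 21 d replicate 2 (adjusted p 0.135). Of 12 inhibitors of this signalling, 0 passed, and 1 at each time, Sigirr, had an unadjusted p under 0.05. Nfkbie (r = 0.786), Tnfaip3 (0.707) and Bcl3 (0.686) were the closest, and the largest differences were -0.72 ± 0.62 for Socs2 at 21 d and 0.67 ± 0.47 for Cish at 90 d (adjusted p 0.639 and 0.680). For these 12 inhibitors the median r was 0.26, and 0.14 without treated 21 d replicate 2. Glucocorticoid responsive genes, read because glucocorticoids act jointly with cytokines on acute phase genes, passed for 0 of 8 (3 at 21 d and 2 at 90 d at an unadjusted p under 0.05), with a median r of 0.05 and none at 0.8. Zbtb16 differed by 1.08 ± 0.42 at 90 d (adjusted p 0.344) and Fkbp5 by 0.46 ± 0.19 at 21 d (adjusted p 0.223).

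Markers of other cells moved with the acute phase genes between animals. Of 13 listed markers of Kupffer cells and other macrophages, 12 were measured, and 11 of these reached r = 0.8 (91.7%, median 0.92; 0.88 without treated 21 d replicate 2). Cd5l (r = 0.961), Csf1r (0.958), C1qc (0.941) and C1qb (0.934) were the closest, and Ccr2, a marker of recruited monocytes, was at -0.153. The mean signal of these 12 markers ran from 8.03 to 10.74 in treated 21 d mice, where replicate 2 was the highest, from 8.38 to 10.28 in vehicle 21 d, from 8.25 to 9.85 in treated 90 d and from 8.21 to 9.57 in vehicle 90 d mice. None passed at either time, also not at an unadjusted p under 0.05. Vsig4 differed by -0.69 ± 0.41 at 21 d and Marco by 1.11 ± 0.77 at 90 d (adjusted p 0.437 and 0.667). Without treated 21 d replicate 2, Vsig4 was lower by a difference of -1.21 ± 0.31 at 21 d (adjusted p 0.0284). A log2 array signal has no true 0, so absence of a marker was not read. In whole liver, fewer cells of a type and less RNA per cell cannot be told apart, and the part of these cells in the acute phase values was not tested.

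Of 14 neutrophil markers, 12 were measured and 0 passed at either time, with or without adjustment. S100a9 (r = 0.962) and S100a8 (0.952), subunits of calprotectin that other myeloid cells also make, reached 0.8, whereas Camp (0.725) and Ngp (0.704) did not and Elane (0.033) and Cxcr2 (0.187) were lowest. Across the 12 the median r was 0.56, and 0.41 without treated 21 d replicate 2. S100a8 was 6.23, 10.53, 5.78, 5.09 and 5.26 in treated 21 d mice, so replicate 2 was again the high animal. At 90 d S100a9 differed by 0.89 ± 0.79 and S100a8 by 0.88 ± 0.87 (adjusted p 0.758 and 0.786). Of 9 measured markers of T, NK and B cells, 0 passed (0 at 21 d and 1 at 90 d without adjustment) and 1, Nkg7 (r = 0.805), reached 0.8. Adipocyte markers (4 measured) and hepatocyte markers (10 measured) had 0 passing (1 and 3 at 21 d, 0 and 2 at 90 d without adjustment) and 0 at 0.8; Cyp2c29 was the lowest hepatocyte marker (r = -0.775). The part of neutrophils in the Lcn2 signal, which they can supply, was not tested.

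**Figure D5:**
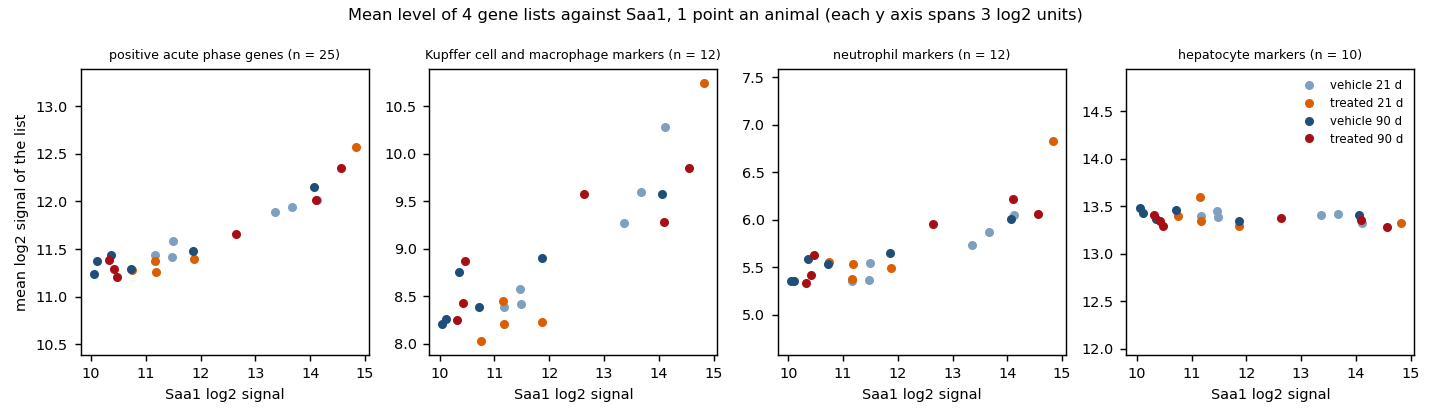
Mean log2 signal of 4 gene lists (y axis) against the Saa1 signal (x axis), with 1 point per animal coloured by group and each y axis spanning 3 log2 units. Macrophage markers reach 10.74 in the animal with the highest Saa1, and hepatocyte markers stay between 13.3 and 13.6.

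Leaving out treated 21 d replicate 2, an alternative added for these lists after the data were seen, changed their counts at 21 d. Of 142 list genes measured, 5 then passed in limma, and the share of all probe sets passing went from 0.957% to 5.03%. The 5 genes were Vsig4, Fgg (-0.21 ± 0.06, adjusted p 0.0431), Igf1 (-0.28 ± 0.06, adjusted p 0.0109), and the kinase genes Irak1 (0.33 ± 0.08, adjusted p 0.0197) and Ikbkb (0.29 ± 0.08, adjusted p 0.0311). On the 4 treated arrays left the Gapdh difference was 1.02 to 1.45, above all vehicle 21 d arrays (0.09 to 0.49), and its part in these calls was not tested.

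Over the whole array, 110 of 10834 genes outside the set with a mean of at least 6 correlated with its mean profile at 0.9 or above. The 10 nearest were Slc41a2, a magnesium transporter (0.979), Orm3, Orm1, Ifitm3, an interferon-induced membrane protein (0.964), S100a9, Cd5l, Mpeg1, a macrophage perforin (0.959), Csf1r, Fcgr4, an Fc receptor (0.957), and Slc11a1, a phagosomal metal transporter (0.957). Slc41a2 signals in treated 21 d mice were 8.46, 10.69, 8.43, 8.31 and 8.84. The lowest were Etnppl, which degrades phosphoethanolamine (-0.900), Cyp2a12 (-0.874), Gsta2 (-0.871), Inmt (-0.841), Cyp2f2 (-0.839) and Agtpbp1 (-0.838); 4 of these encode enzymes that oxidise or conjugate foreign and small molecules. Etnppl was 10.98 in treated 21 d replicate 2 and 11.55 to 11.82 in the other treated 21 d mice. Without treated 21 d replicate 2, Slc41a2 (0.972), Orm3 (0.971) and Orm1 (0.969) were still nearest and Etnppl (-0.895) still lowest. Pros1 (0.95), encoding anticoagulant protein S, and Fgl1 (0.943), encoding a fibrinogen-like hepatokine, then joined the 10 nearest, and Lrit1 (-0.833), Acaa1b (-0.806) and Acot2 (-0.804) joined the 6 lowest.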

How the data were processed

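The deposited table holds log2 values with 2 decimals for 45101 probe sets on 23 Affymetrix arrays, 1 per animal; the base was inferred from the values. The tools were Partek and RMA, per the submitters' processing notes, and no version of either is known here. RMA scales all arrays to the same distribution, which removes any shift that all genes share. Control probe sets (64) were left out. The platform annotation paired 34945 probe sets with 1 gene, 932 with several and 9160 with none.

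The 4 group means were fitted to all 45037 probe sets with lmFit and eBayes (limma 3.58.1, R 4.3.3; 19 residual degrees of freedom), with Benjamini-Hochberg adjustment over all of them and an adjusted p under 0.05 as the threshold. The fit was tested on simulated data. The number of arrays limits precision. A limma p-value sets a group difference against the spread between animals of the same group. That spread was pooled over the 4 groups and moderated over all probe sets by eBayes. Correlations used values minus group means and are given as descriptions, without a p-value.

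The genes and lists were chosen with earlier results of these data known. Genes named besides the 10 were, per list and time, up to 3 that passed, or the 2 with the largest change where none did, the 4 most like the mean profile, and the 10 nearest and 6 lowest genes of the array with a mean of at least 6. Alternatives covered eBayes settings, scaling, centring, a filter on dim probe sets, probe set averaging, covariates, array weights, a replicate block and leaving out each array. Genes and values named outside this rule (the lowest of a list, Cdkn1a) were chosen after their values were seen.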

Additional observations from a re-analysis of the deposited data

Results flagged for a closer look

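Each of the 15 probe sets was examined in each of the 4 groups for an animal far from the others (Dixon's test, 95% critical value), 60 tests in all. The result was 14 such values. The probe sets share their animals, so the 14 are not independent. Earlier results of these data had already singled out treated 21 d replicate 2, so the count is a description and was not set against chance. That animal was the far one in 10 of the 14. It was at 14.83 and 14.85 for the probe sets of Saa1, 14.49 for Saa2, 11.89 for Saa3, 14.10 for Orm2, 13.83 for Lcn2, 11.45 for Serpina3n, 14.90 for Hp, 14.86 for Fgb and 6.68 for the dimmest Il1rn probe set. The next animals of that group were at 11.87 for Saa1, 9.88 for Saa2, 8.84 for Saa3, 9.06 for Orm2 and 8.37 for Lcn2. This array also had the lowest Gapdh 3' to 5' difference of its group (0.14). Vehicle 90 d replicate 2 was the far animal for Hp (14.60), Lcn2 (11.09) and Orm2 (11.91), where the next animals were at 14.12, 7.48 and 9.34. Vehicle 21 d replicate 1 was the far animal for the dimmest Il1rn probe set (5.70, next 4.95). The causes were not tested.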

How the results depend on the processing

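The number of acute phase genes passing at 90 d went from 1 to 0 with arrays centred on their medians and ran from 0 to 1 over the fits without 1 array; Serpina3n is the gene concerned, and its difference stayed between 0.48 and 0.61 in those fits. The cause was not tested. With the replicate number as a block (replicate block), Serpina3n differed by 0.55 ± 0.11 at 90 d (limma, adjusted p 0.0415), and the block changed no other call. Treated and vehicle animals with the same number did not deviate together. Their deviations tended in opposite directions (r from -0.358 to -0.139), and the reason was not tested. No result reversed while called. Of 339 values at 21 d, 26 changed sign without a call, as did 8 of 339 at 90 d, 14 of 319 for the difference of the effects and 15 of 329 between vehicle groups. The numbers passing at 21 d, for the difference of the effects and between vehicle groups stayed at 0 under every alternative run. The median correlation between genes stayed between 0.689 (Spearman) and 0.787 (mean of all probe sets). Dim probe sets such as those of Il1rn and Il6 could not be set against background, and Hp and Fgb lay near the top of the scale.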

Other observations

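Cdkn1a, which encodes the p53-induced inhibitor p21, was read beside Saa1 after its values were seen, so its values are given as a description, without a p-value. In treated 90 d mice its signals were 10.89, 10.69, 9.01, 11.79, 10.67 and 9.15 in replicates 1 to 6, and the 2 animals highest for Saa1, replicates 3 and 6, were the lowest for Cdkn1a. Pearson's r with Saa1 was -0.907 over these 6 animals, and -0.472 over the 4 left without those farthest from the median in Saa1. In vehicle mice r was -0.193 at 21 d and -0.0247 at 90 d (-0.996 and 0.962 over the 4 left). In treated 21 d mice, replicate 2, the highest for Saa1, was the highest for Cdkn1a (10.26, against 8.95 to 9.59 in the other 4).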
